A study of Mus musculus with 24 samples.

Results

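The respiratory chain and ATP synthase genes were read on liver arrays of mice on a low-fat or a high-fat, high-sucrose diet. Members were taken by name, as the probes whose gene name begins with Ndufa, Ndufb, Ndufc, Ndufs or Ndufv, with Sdh and a letter from a to d, with Uqcr, with Cox4, Cox5, Cox6, Cox7 or Cox8, or with Atp5. This gave 150 probes of 96 genes among 56605 probes on the array, and 142 of these probes have a row in the deposited value table. After a filter on dim probes, 139 probes of 93 genes were tested, among 30003 probes of 16056 gene symbols. The genes Cox6a2, Cox7b2 and Cox8c had no tested probe. By name the tested genes hold 38 subunits and 7 assembly factors of complex I, 4 subunits and 4 assembly factors of complex II, 8 subunits of complex III, 13 subunits of complex IV with Cox7a2l, and 15 subunits of complex V with Atp5s, Atp5sl and the pseudogene Atp5c1-ps.

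All mice were male C57Bl6J of the third generation bred on a diet with added oil, and each array read total RNA from the liver of 1 mouse killed while fasting. STD_Cont (9 mice, the reference group of the study) came from the control lineage, which received high oleic sunflower oil, and ate a low-fat diet. HFD_Cont (8 mice, HFoleic) came from the same lineage and ate the obesogenic diet, and HFD_O3 (7 mice, HFepa) came from the lineage whose oil was a fish oil with much eicosapentaenoic acid (EPA), and ate that same obesogenic diet. No mice of the fish oil lineage on the low-fat diet were among the arrays, so diet and lineage cannot be told apart in the comparison of HFD_O3 with STD_Cont.

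The respiratory chain sits in the inner mitochondrial membrane and passes electrons from NADH, through complex I, and from succinate, through complex II, by way of coenzyme Q to complex III, cytochrome c and complex IV, where oxygen is reduced to water. Complexes I, III and IV pump protons, and complex V, the ATP synthase, lets them flow back to make ATP. Most subunits are encoded in the nucleus and a few in the mitochondrial genome, so both sets of transcripts are needed to build complexes I, III, IV and V. In the fasting liver this chain oxidises the NADH and reduced flavins that come from fatty acid oxidation and supplies the ATP for gluconeogenesis.

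On each array 28804 to 34432 probes (50.9% to 60.8%) stood well above background, no spot was saturated, and all 3 slides held all 3 groups. For the liver label, 8 of 8 hepatocyte marker genes were well above background on every array. Of the STD_Cont arrays, however, replicates 3, 4 and 5 were high for some striated muscle or brown fat genes, whose values stand with complex IV. The 4 members called below are given with and without these arrays. Some other HFD_Cont calls are given only with them, such as those of ND6, Sqrdl, Taco1, Coa5 and dimmer Atp5g3 and Atp5j2 probes. Replicate 5 also stood apart as a whole, with a mean correlation of 0.977 to its group against 0.987 to 0.994 for the other 23 arrays, and it was high for fibroblast and bile duct markers. In bulk tissue, fewer cells of a type and less RNA per cell cannot be told apart, and the p-values measure the spread between mice. Levels and differences are log2 values of normalized signal, so a difference of 0.322 is a 1.25-fold change, and a gene was called when its Benjamini-Hochberg adjusted p in limma, over all tested probes, was below 0.05. Each gene is represented by its brightest tested probe unless another is named.

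Few members differed on the high-fat diet, and the differences were small. In HFD_Cont compared to STD_Cont, 3 of 93 genes (Ndufb4, Ndufv3 and Ndufaf5, all of complex I) were called higher and 1 (Cox6b2, a complex IV subunit) was called lower. That is 4.30% of the members, against 9.16% of all tested genes called in either direction, 5.19% higher and 3.97% lower. At an unadjusted p below 0.05 there were 19 members higher and 3 lower, or 23.7%, against 24.5% of all tested genes (13.8% higher and 10.7% lower). Genes of like brightness were called more often. Of the 1595 tested genes with a mean signal of 13 or more, 18.1% were called, against 2.90% of the 69 members in that range. Unadjusted, 411 of the 1595 were higher and 224 lower, beside 15 and 0 of the 69. No member separated all HFD_Cont arrays from all STD_Cont arrays. Over all tested genes 0.685% did, a share so small that none among 93 members says little.

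The small differences leaned upward. The median difference over the 93 members was 0.05, with 67 of them (72.0%) above 0, beside a median of 0.00 and 50.2% above 0 over all tested genes. Most members are bright, and among the 1595 tested genes with a mean signal of 13 or more the median was 0.04 and 60.3% were above 0, beside 0.06 and 78.3% for the 69 members in that range. The difference was smaller than 0.1 in either direction for 61 of the 93 members. Within slides the member median was 0.03, 0.08 and 0.07, so it was above 0 on each of the 3 slides.

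The members were also measured tightly, which sets what could have been seen. Their median residual SD between mice was 0.0997, against 0.183 for all tested genes and 0.133 for the bright ones. For 84 of the 93 members the 95% confidence interval of the difference lay inside a 1.25-fold change in either direction (0.322 on the log2 scale), as it did for 9079 of the 16056 tested genes. All 69 bright members were inside this bound. The 9 members outside it were Ndufa4l2, Ndufaf1, Ndufaf5, Ndufaf6, Cox6b2, Cox7a1, Cox8b, Atp5s and Atp5sl.

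**Figure D1:**
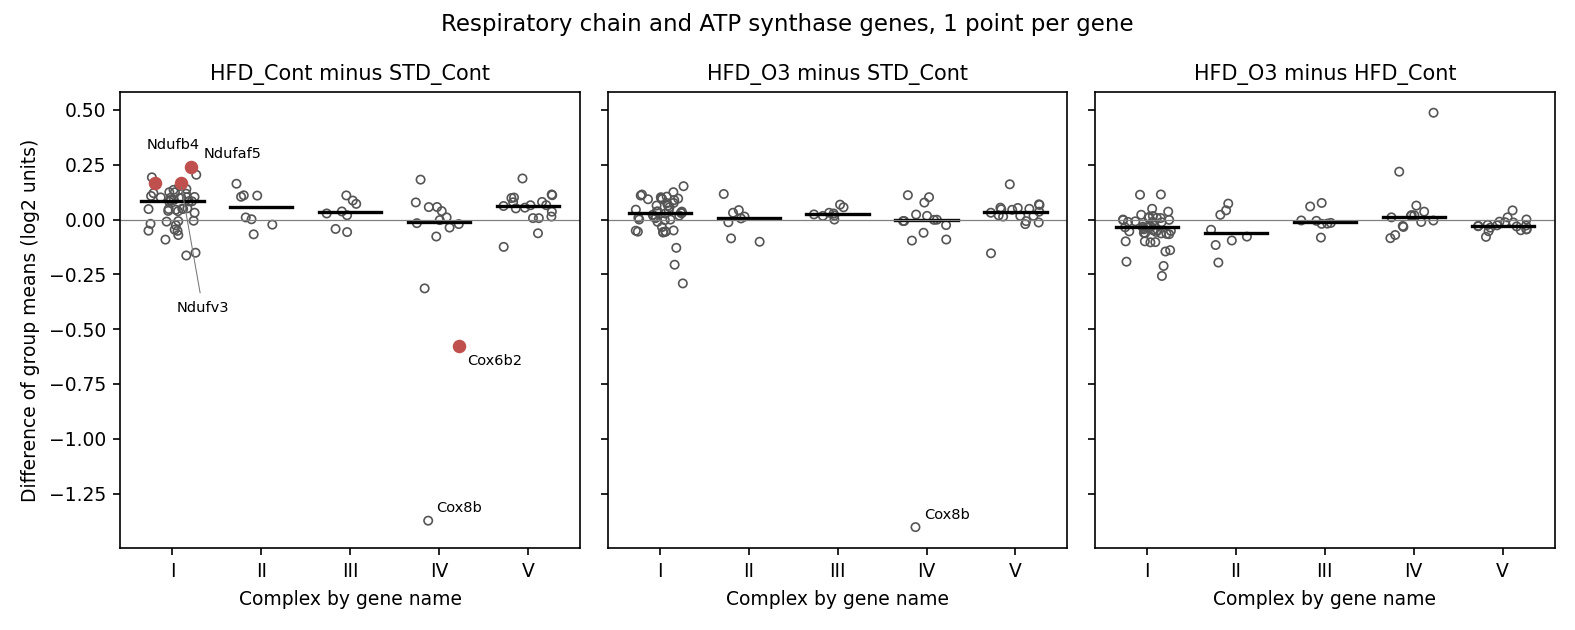
Difference of group means (log2 units) for each of the 93 tested genes, by complex, in the 3 comparisons; each point is a gene at its brightest probe, bars are medians and filled red points are genes called at an adjusted p below 0.05. Medians lie between -0.06 and 0.08, the 4 called genes are all in the first panel, and the low point at -1.37 and -1.40 is Cox8b.

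Complex I, the NADH dehydrogenase, is the largest of the complexes and holds 45 of the 93 tested members. The 3 genes called higher were all among these 45, or 6.67%, near the 5.19% called higher over all tested genes. The 45 genes of complex I had a median difference of 0.08 in HFD_Cont compared to STD_Cont, and 33 were above 0. Its 38 subunits had a median of 0.08 and 27 above 0, with 2 called higher, or 5.26% against 9.16% of all tested genes (5.19% higher).

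Among the subunits, all 10 Ndufb genes, which build much of the membrane arm, were above 0 in HFD_Cont, between 0.03 and 0.17 with a median of 0.12. Only Ndufb4 of them was called, and 7 of the 10 had an unadjusted p below 0.05. At that unadjusted p 13.8% of all tested genes were higher, and 411 of the 1595 with a mean signal of 13 or more. Of the 15 Ndufa genes, 10 were above 0 with a median of 0.05 and none was called. Ndufa4 is among them by name, although its protein is now placed with complex IV, and it had a difference of 0.08. The Ndufs genes split evenly, with 4 of 8 above 0 and a median of 0.02.

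Ndufb4, an accessory subunit of the membrane arm, is probed at chr16:37647711-37647770 on the minus strand (mm9, as the scanner files give it). Its signal ran from 14.72 to 15.02 with a median of 14.74 in STD_Cont, from 14.86 to 15.09 with a median of 14.96 in HFD_Cont, and from 14.85 to 15.02 with a median of 14.91 in HFD_O3. All 8 HFD_Cont arrays lay above the STD_Cont mean and 2 above every STD_Cont array, so the groups overlapped. The difference was 0.17 (SE 0.05, 95% interval 0.07 to 0.27, limma adjusted p = 0.0345), and within slides it was 0.18, 0.14 and 0.17.

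Ndufv3, a small subunit of the NADH-binding module, is probed at chr17:31668209-31668268 on the plus strand. Its signal ran from 14.96 to 15.27 with a median of 15.04 in STD_Cont, from 15.13 to 15.33 with a median of 15.24 in HFD_Cont, and from 15.03 to 15.30 with a median of 15.12 in HFD_O3. The high STD_Cont value belonged to replicate 8 and the other 8 arrays stayed at or below 15.11. The difference was 0.17 (SE 0.05, limma adjusted p = 0.0367), with 0.18, 0.20 and 0.12 within slides. A second probe of the gene gave -0.01 and was not called.

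Ndufaf5, an assembly factor that modifies a core subunit while complex I is put together, is probed at chr2:140014595-140019324 on the plus strand, a span longer than the probe itself. Its signal ran from 8.24 to 8.62 with a median of 8.29 in STD_Cont, from 8.42 to 8.77 with a median of 8.58 in HFD_Cont, and from 8.26 to 8.70 with a median of 8.40 in HFD_O3. STD_Cont replicate 8 was again the high array, and all other STD_Cont arrays lay below every HFD_Cont array. The difference was 0.24 (SE 0.07, limma adjusted p = 0.0311). Within slides it was 0.38, 0.26 and 0.07, and a second probe of the gene gave 0.02.

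These 3 calls were not stable. Without STD_Cont replicate 8 the members called in this comparison rose to 10, and without STD_Cont replicate 1 or HFD_Cont replicate 1 they fell to 1. Ndufb4, Ndufv3 and Ndufaf5 lost the call in 10, 12 and 6 of the 24 fits that left out 1 array, and each lost it without STD_Cont replicates 3, 4 and 5 together (adjusted p = 0.132, 0.115 and 0.106), a fit with 3 fewer arrays in which the differences were 0.15, 0.16 and 0.23.

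**Figure D2:**
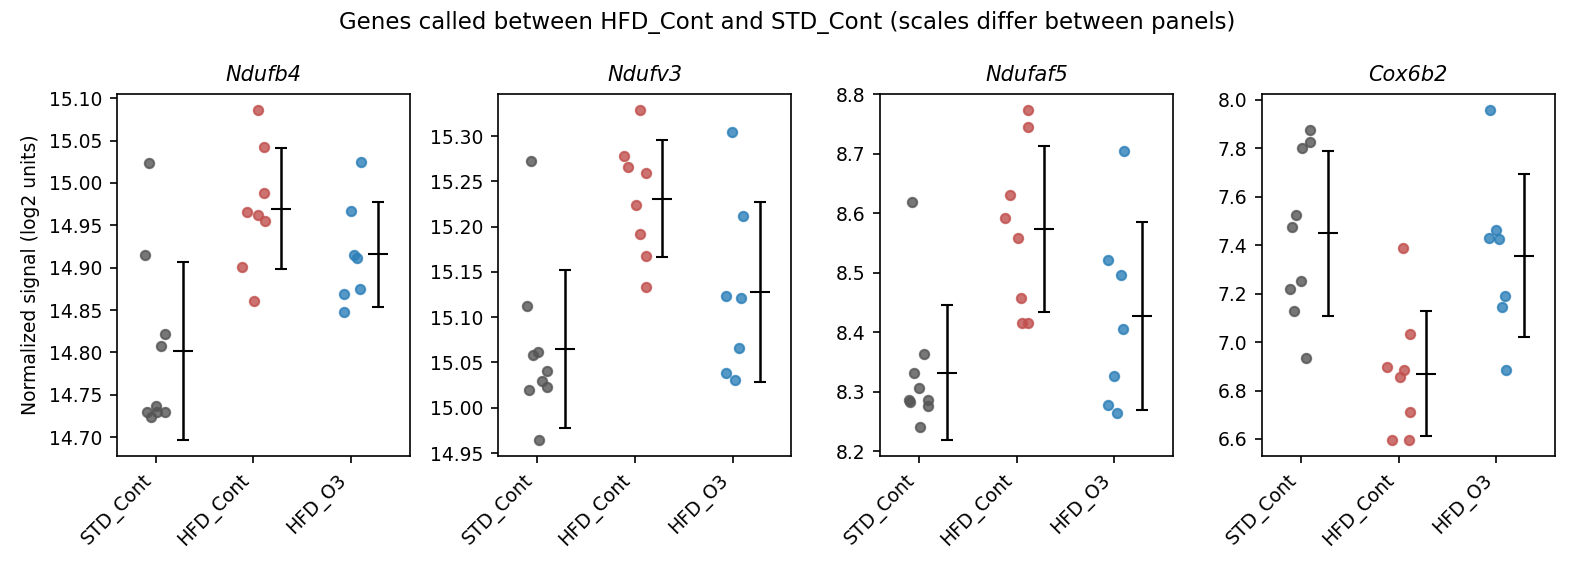
Normalized signal (log2 units) of the 4 genes called between HFD_Cont and STD_Cont, 1 point per mouse, with the mean and SD of each group beside the points; the vertical scale differs between panels and does not start at 0. Groups overlap in every panel, and Cox6b2 is the one gene of the 4 that lies lower in HFD_Cont.

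The other assembly factors of complex I moved in both directions with no call. Ndufaf6 had a difference of 0.20 (limma adjusted p = 0.0562) and Ndufaf1, a chaperone of the membrane arm, 0.19 (limma adjusted p = 0.0725). Ndufaf4 had the lowest value of the complex at -0.16 (limma adjusted p = 0.0913). Over the 11 assembly factors of complexes I and II the median was 0.08.

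The promoters of 3 called genes, Ndufb4, Ndufv3 and Cox6b2, are given because shared control of nuclear respiratory genes is commonly read from promoter motifs. Of the 96 genes, 79 matched an entry of the RefSeq promoter table (GRCm38.p6), 76 by symbol and 3 by synonym. Each entry spans 250 bases before to 50 after the start, and the letters below are the 250 bases before it, 5′ to 3′ on the strand of the gene. Capitals mark a match on either strand to GCGCA, any base, GCGC (NRF1), GGGCGG (Sp1) or CCAAT. Ndufaf5, the other called gene, has no such match in its 250 bases before the start and is not printed.

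Ndufb4 (GRCm38.p6, chr16:37654369-37654618, minus strand): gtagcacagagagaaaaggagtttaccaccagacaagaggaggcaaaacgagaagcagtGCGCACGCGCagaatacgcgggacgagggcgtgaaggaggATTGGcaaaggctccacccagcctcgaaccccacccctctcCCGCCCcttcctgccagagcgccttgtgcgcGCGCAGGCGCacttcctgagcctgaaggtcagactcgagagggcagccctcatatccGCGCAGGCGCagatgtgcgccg
Ndufv3 (GRCm38.p6, chr17:31519865-31520114, plus strand): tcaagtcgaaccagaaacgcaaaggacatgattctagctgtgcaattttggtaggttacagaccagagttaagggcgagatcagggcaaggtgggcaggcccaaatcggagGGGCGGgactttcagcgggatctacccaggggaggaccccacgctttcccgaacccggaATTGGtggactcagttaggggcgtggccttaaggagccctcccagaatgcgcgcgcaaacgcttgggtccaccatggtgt
Cox6b2 (GRCm38.p6, chr7:4753095-4753344, minus strand): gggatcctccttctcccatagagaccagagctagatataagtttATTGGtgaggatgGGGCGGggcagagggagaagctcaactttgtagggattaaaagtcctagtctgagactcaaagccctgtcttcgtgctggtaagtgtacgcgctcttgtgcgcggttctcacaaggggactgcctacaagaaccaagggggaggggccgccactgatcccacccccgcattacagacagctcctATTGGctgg

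The Ndufb4 promoter held 3 matches to the NRF1 motif, which begin 191, 79 and 22 bases before the start, with 1 Sp1 and 1 CCAAT match. Those of Ndufv3 and Cox6b2 held no NRF1 match in these letters. Ndufaf5 had its single NRF1 match after the start, at bases 17 to 26. Over all 79 member promoters, 25.3% held the NRF1 motif, against 6.38% of the 21263 protein-coding promoters and 4.6% of all 32851. The ETS motif CCGGAAG was in 24.1% against 11.6% of the protein-coding ones, and the YY1 motif AAGATGGC in 12.7% against 3.05%. The motif TCAAGGTCA of the estrogen-related receptors was in 2 member promoters (Atp5g3 and Sdhd), 2.53% against 0.334%. For Sp1 and CCAAT the shares were closer, 48.1% against 46.2% and 44.3% against 38.2%. TATAAA was in 8 of 79 member promoters and in 2679 of the 21263 protein-coding ones. The median GC content was 58.3% in members and 56.3% in protein-coding promoters. A match is a description of these letters and not a bound site.

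Complex II, the succinate dehydrogenase, also serves the tricarboxylic acid cycle. Its 8 genes had a median of 0.06 in HFD_Cont compared to STD_Cont with no call. The flavoprotein Sdha (0.11) and the iron-sulfur subunit Sdhb (0.10) lay above 0, while the membrane anchors Sdhc and Sdhd were at 0.01 and -0.07. The largest value was that of the assembly factor Sdhaf2, which attaches the flavin to Sdha, at 0.16 (SE 0.07, limma adjusted p = 0.184).

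Complex III, the cytochrome bc1 complex, had no called gene either. Its 8 subunits had a median of 0.03, between -0.06 for Uqcr10 and 0.11 for the core protein Uqcrc2 (SE 0.05, limma adjusted p = 0.194). The Rieske iron-sulfur protein Uqcrfs1 was at 0.04. Cyc1, the cytochrome c1 of this complex that the naming rule does not reach, was among the 6 tested genes of a further complex III list. None of the 6 was called and 1 had an unadjusted limma p below 0.05. Over all tested genes the shares were 9.16% and 24.5%, so a list this short says little.

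**Figure D3:**
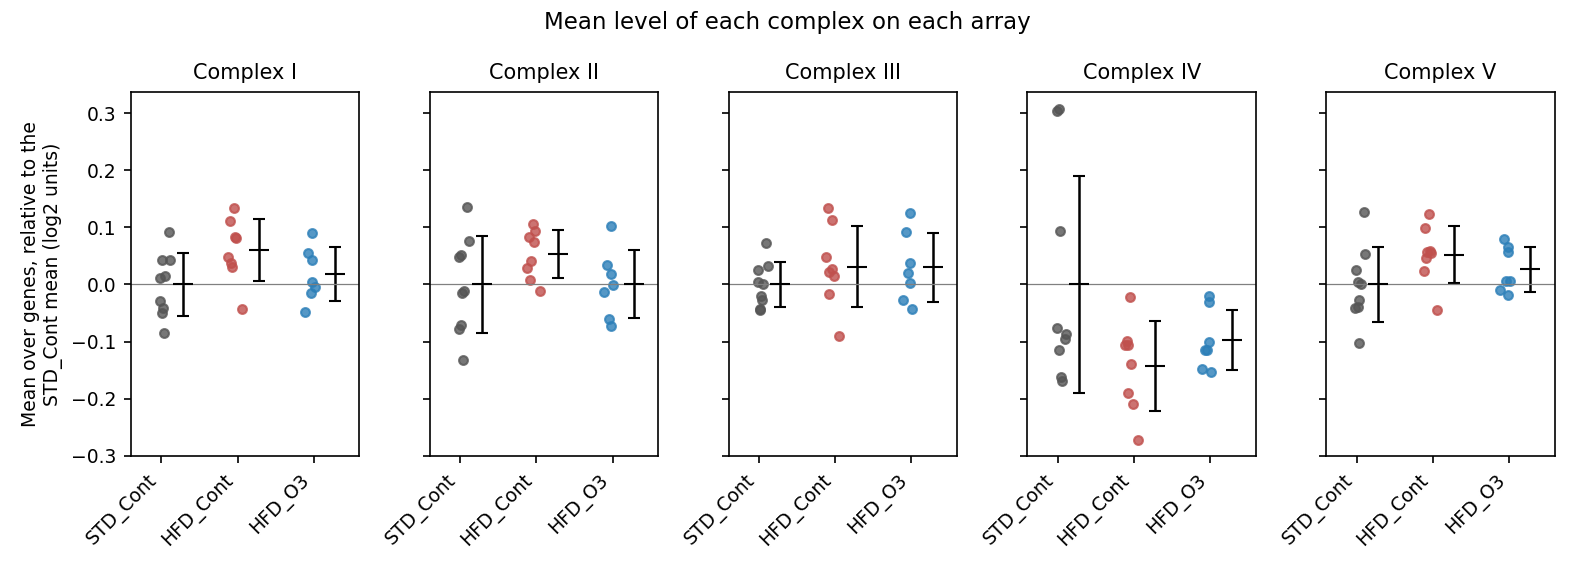
Mean over the genes of each complex on each array, relative to the STD_Cont mean (log2 units), 1 point per mouse, with the mean and SD of each group. Groups overlap in every complex. The wide spread of STD_Cont in complex IV (SD 0.19) comes with 3 high arrays, replicates 3, 4 and 5.

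Complex IV, the cytochrome c oxidase, has several subunits with tissue-restricted forms, which replace the common form in muscle, brown fat or testis. For the common forms the differences in HFD_Cont compared to STD_Cont were 0.04 for Cox4i1, -0.00 for Cox6a1, -0.02 for Cox6b1, -0.02 for Cox7a2 and 0.01 for Cox8a. Cox6c, which has no such pair, was the highest of the complex at 0.18 (SE 0.06, limma adjusted p = 0.0691). The lung form Cox4i2 was at -0.04.

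Cox6b2, known as the testis form of the subunit that faces the intermembrane space, was the only member called lower. It is probed at chr7:4703488-4703547 on the minus strand (mm9) and was well above background on all 24 arrays. Its signal ran from 6.93 to 7.88 with a median of 7.48 in STD_Cont, from 6.60 to 7.39 with a median of 6.87 in HFD_Cont, and from 6.89 to 7.96 with a median of 7.43 in HFD_O3. All 8 HFD_Cont arrays were below the STD_Cont mean and 6 were below every STD_Cont array, while HFD_O3 covered the range of STD_Cont.

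The Cox6b2 difference was -0.58 in HFD_Cont compared to STD_Cont (SE 0.14, 95% interval -0.88 to -0.28, limma adjusted p = 0.0147). It was -0.58, -0.49 and -0.57 within slides, and the call held in all 24 fits that left out 1 array, with adjusted p between 0.0079 and 0.0338. Without STD_Cont replicates 3, 4 and 5 together the difference was -0.53 and the call was lost (adjusted p = 0.0605). In HFD_O3 compared to STD_Cont it was -0.09 (limma adjusted p = 0.86). In HFD_O3 compared to HFD_Cont it was 0.49, higher than the HFD_Cont mean on 7 of 7 arrays, with an unadjusted limma p of 0.00416 and an adjusted p of 0.281.

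Cox8b, the form of muscle and brown fat, had the widest range of all members. Its signal ran from 5.66 to 11.11 with a median of 5.91 in STD_Cont, from 5.44 to 6.31 with a median of 5.74 in HFD_Cont, and from 5.57 to 6.03 with a median of 5.82 in HFD_O3. The 3 high STD_Cont arrays were replicates 3, 4 and 5, at 8.26, 11.11 and 10.55. The probe was well above background on 8 of 9 STD_Cont, 4 of 8 HFD_Cont and 3 of 7 HFD_O3 arrays, so it passed the filter on dim probes through STD_Cont alone and its level in the other groups is near background. The differences of -1.37 for HFD_Cont and -1.40 for HFD_O3 are given as a description, and neither was called. Without those 3 arrays the differences were 0.01 and -0.02.

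Some other muscle and fat genes were high on these arrays too. On values normalized over all probes, Cox7a1 was at 10.62, 11.03 and 10.51 on replicates 3, 4 and 5, and between 9.18 and 10.66 on the other 21 arrays. Cox6a2, the muscle form that did not pass the filter, was at 9.05 on replicate 3 and 7.42 on replicate 5, and between 5.36 and 6.49 on those 21 arrays. Ucp1, the uncoupling protein of brown fat, was at 11.15 on replicate 4 and 9.68 on replicate 5, and between 4.74 and 5.18 on those 21 arrays. The adipocyte hormone Adipoq was at 9.71 and 8.59 on these 2 arrays and between 5.23 and 6.17 on the 21. Cfd (12.36 and 11.97) and Cidea (11.94 and 11.79), which are also adipocyte markers, were inside the range of the 21 arrays, which reached 13.40 and 12.70. Tnnt3, a troponin of skeletal muscle, was at 10.16 on replicate 3 and between 6.18 and 6.80 on the 21.

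Of the 8 striated muscle markers, 5 on replicate 3, 2 on replicate 4 and 0 on replicate 5 lay above all 21 other arrays, and of the 6 adipocyte markers 1, 3 and 2 did. Of the 6 blood markers, 2, 4 and 0 did. On replicates 3 and 4 it was also 2 and 0 of the 6 bile duct markers, and 1 and 2 of the 7 stellate cell and fibroblast markers. One muscle marker had no value on replicate 5. Replicate 5 also lay above the 21 for 4 of 7 stellate cell and fibroblast markers, among them Col1a1 (11.18, others up to 8.55) and Col3a1 (12.41, others up to 10.28), and for 5 of 6 bile duct markers, among them Spp1 (13.26, others up to 11.56) and Sox9 (9.23, others up to 8.04). The hepatocyte markers went both ways on replicate 5. It lay above the 21 for 2 of 8, Tat (15.49, others up to 15.15) and Cps1 (14.24, others up to 14.19). It lay below them for Cyp2e1 (17.00, others 17.85 to 17.99) and Ttr (17.10, others 17.20 to 17.69).

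Over whole marker lists, the log2 of the summed level of 8 striated muscle markers, of which 3 were well above background on all arrays, ran from 8.73 to 11.38 in STD_Cont, from 9.00 to 9.33 in HFD_Cont and from 9.14 to 9.60 in HFD_O3. For 6 adipocyte markers, again with 3 on all arrays, it ran from 8.98 to 13.62, from 9.81 to 13.70 and from 9.09 to 12.78. Ucp1 was well above background on 2 arrays in all. The complex IV mean over its genes was -0.14 ± 0.08 (SD, n = 8) in HFD_Cont relative to STD_Cont, whose SD was 0.19. With Cox7a1 and Cox8b left out it was -0.03 ± 0.07 (SD, n = 8) and the STD_Cont SD fell to 0.04. With those 3 arrays out of the fit, no member was called in HFD_Cont compared to STD_Cont (11 at an unadjusted p below 0.05), while 1381 of all tested probes still were, against 2170 with them. The part of these tissues in the calls was not tested.

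**Figure D4:**
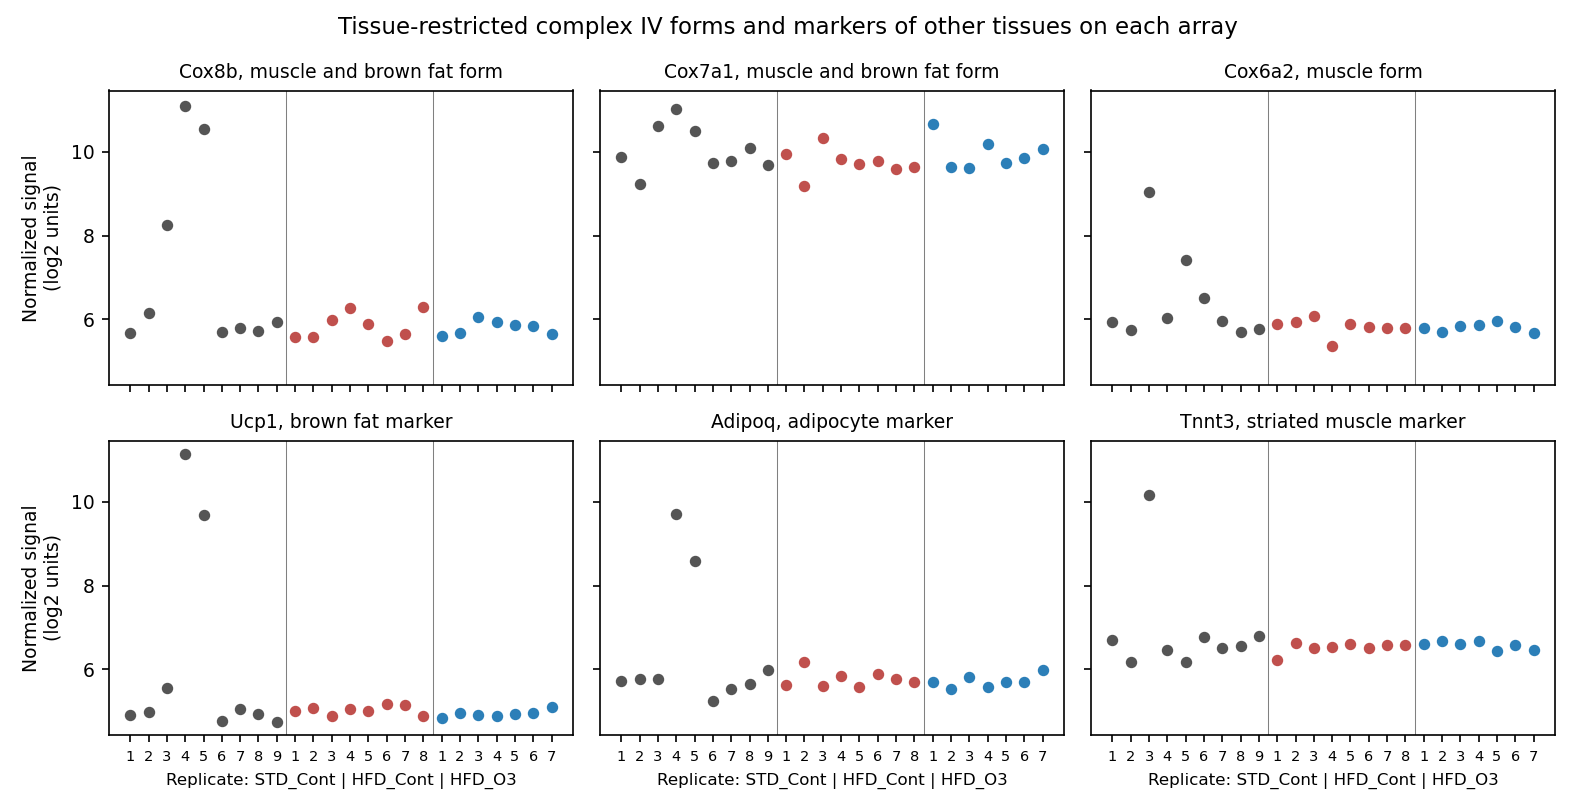
Normalized signal (log2 units, over all probes) on each of the 24 arrays for 3 tissue-restricted complex IV subunits (upper row) and 3 markers of brown fat, adipocytes and striated muscle (lower row), with replicates of STD_Cont, HFD_Cont and HFD_O3 from left to right; the vertical axis does not start at 0. STD_Cont replicates 4 and 5 are high for Cox8b, Ucp1 and Adipoq, and replicate 3 for Cox6a2 and Tnnt3.

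Complex V, the ATP synthase, had a median of 0.06 over 18 genes in HFD_Cont compared to STD_Cont, with 16 above 0 and no call. In the catalytic head the differences were 0.01 for the alpha subunit Atp5a1, 0.06 for the beta subunit Atp5b, 0.11 for the gamma subunit Atp5c1, -0.06 for Atp5d and 0.10 for Atp5e. The 10 subunits of the membrane part and the stalks were all above 0, between 0.01 for Atp5o and 0.11 for Atp5k, with Atp5l at 0.10 (SE 0.04, limma adjusted p = 0.159). The genes Atp5g1, Atp5g2 and Atp5g3, which encode the same ring protein, were at 0.06, 0.05 and 0.05. The pseudogene Atp5c1-ps, whose probe may share sequence with Atp5c1, was at 0.01. Atp5sl and Atp5s, named after subunit s of the synthase, were at 0.19 (SE 0.09) and -0.12 (SE 0.10) and were not called.

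Second probes of 2 ATP synthase genes went the other way from their brightest probes. A dimmer Atp5g3 probe at chr2:73746848-73746907 (mm9, minus strand) ran from 8.79 to 9.22 with a median of 9.06 in STD_Cont, from 8.32 to 8.87 with a median of 8.64 in HFD_Cont, and from 8.54 to 8.91 with a median of 8.63 in HFD_O3. It was lower by limma in both groups, with differences of -0.39 (SE 0.08, adjusted p = 0.00332) and -0.35 (SE 0.08, adjusted p = 0.0499). The brightest Atp5g3 probe, at chr2:73746519-73746578, was at 0.05 (limma adjusted p = 0.658) and 0.04. A dimmer Atp5j2 probe at chr5:145951088-145951147 (minus strand) ran from 7.40 to 7.90 in STD_Cont, from 7.19 to 7.68 in HFD_Cont and from 7.29 to 7.67 in HFD_O3. Its difference was -0.26 (SE 0.08, limma adjusted p = 0.046) in HFD_Cont and -0.23 (limma adjusted p = 0.194) in HFD_O3, beside 0.07 in HFD_Cont for the brightest probe. Counted over every tested probe, 6 of 139 member probes were called in HFD_Cont compared to STD_Cont, 3 higher and 3 lower, or 4.32% against 7.23% of all tested probes (4.05% higher and 3.19% lower). In HFD_O3 compared to STD_Cont the dimmer Atp5g3 probe was the 1 member probe called, or 0.719%, against 0.393% of all tested probes.

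In HFD_O3 compared to STD_Cont no member was called at its brightest probe, against 0.43% of all tested genes, and the smallest adjusted p was 0.202. At an unadjusted p below 0.05 there were 6 members higher and 1 lower, or 7.53%, against 15.3% of all tested genes (7.65% higher and 7.67% lower). The median difference was 0.02 with 61 of 93 members above 0, and 85 of 93 intervals lay inside a 1.25-fold change. The smallest p values were those of complex I, with Ndufb9 at 0.12 (SE 0.04), Ndufb2 at 0.11 (SE 0.04, limma adjusted p = 0.276), Ndufb4 at 0.11 (SE 0.05, limma adjusted p = 0.319) and Ndufaf6 at 0.15 (SE 0.07, limma adjusted p = 0.321). All 10 Ndufb genes were above 0 in this comparison too, with a median of 0.10, and both comparisons share the STD_Cont arrays.

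The lineage comparison, HFD_O3 against HFD_Cont on the same diet, gave no call among the 93 members and none among all tested genes (0%). At an unadjusted p below 0.05 there were 4 members, Cox6b2 higher and Ndufaf1, Ndufaf7 and Sdhaf4 lower, or 4.30%, against 10.7% of all tested genes (4.22% higher and 6.48% lower). The smallest adjusted p was 0.281. The median difference was -0.03, with 26 of 93 above 0.

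Ndufaf1 had a difference of -0.19 between the lineages (SE 0.07, limma adjusted p = 0.346) and means of 11.46 ± 0.13 (SD, n = 9) in STD_Cont, 11.65 ± 0.13 (SD, n = 8) in HFD_Cont and 11.46 ± 0.12 (SD, n = 7) in HFD_O3. Ndufaf7, a methyltransferase that acts on a core subunit, was at -0.26 (SE 0.10, limma adjusted p = 0.412), and Sdhaf4, which helps mature Sdha, at -0.20 (SE 0.08, limma adjusted p = 0.435). The intervals of 85 of the 93 members lay inside a 1.25-fold change here as well. For Cox6b2, Cox7a1, Cox8b, Sdhaf4, Ndufa4l2, Ndufaf1, Ndufaf3 and Ndufaf7 they did not.

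Other parts of the pathway were read from lists of related genes. The 11 tested subunits encoded in the mitochondrial genome had a median of -0.02 in HFD_Cont compared to STD_Cont. Of these 1 was called, or 9.09% against 9.16% of all tested genes. ND6, the one subunit encoded on the opposite strand, ran from 7.57 to 8.49 with a median of 8.31 in STD_Cont and from 8.44 to 8.71 with a median of 8.55 in HFD_Cont, a difference of 0.36 (SE 0.09, limma adjusted p = 0.0163). The complex I subunits ND1 and ND5 were at -0.21 (limma adjusted p = 0.122) and -0.18 (limma adjusted p = 0.118). COX1 and COX2, the catalytic subunits of complex IV, were at -0.06 and 0.01, and CYTB of complex III at -0.02. The ND3 probe is placed on chromosome 1 in the files, where a nuclear copy of mitochondrial DNA lies, so its reading is uncertain.

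The mitochondrial ribosome, which translates those subunits, had 6 of 77 genes called higher and none lower, or 7.79% against 9.16% of all tested genes (5.19% higher), with a median of 0.05. At an unadjusted p below 0.05 there were 18 of the 77 higher and 3 lower, beside 13.8% higher and 10.7% lower over all tested genes. Mrpl1 was at 0.33 (limma adjusted p = 0.00238) and Mrpl39 at 0.28 (limma adjusted p = 0.00237). Mrpl50 (0.28) and Mrps14 (0.20) were among the called genes whose call was lost without STD_Cont replicates 3, 4 and 5 (adjusted p = 0.0629 and 0.0778), at differences of 0.25 and 0.18. Over the 77 tested genes of the cytosolic ribosome, none was called by limma, against 9.16% of all tested genes, and the median was -0.02. There 1 gene was higher and 6 were lower at an unadjusted p below 0.05, beside 13.8% and 10.7% of all tested genes.

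The tricarboxylic acid cycle feeds NADH to complex I. Its list here also held pyruvate carboxylase (Pcx) and genes of the pyruvate dehydrogenase complex (Pdha1, Pdhb, Dlat and Pdhx), and left the Sdh genes to complex II. Of these 19 genes, 4 were called lower and none higher, or 21.1% against 9.16% of all tested genes (3.97% lower), with a median of -0.03. The 19 genes had a median signal of 13.6. Among the 1595 tested genes with a mean signal of 13 or more, 18.1% were called (154 higher and 135 lower). Fumarase Fh1 was at -0.42 (limma adjusted p = 0.0102) and the isocitrate dehydrogenase subunit Idh3a at -0.39 (limma adjusted p = 0.00752). Ogdh, of the oxoglutarate dehydrogenase complex, was at -0.26 (limma adjusted p = 0.0034), with all 8 HFD_Cont arrays below all 9 STD_Cont arrays. All 4 calls held without STD_Cont replicates 3, 4 and 5.

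Of 13 regulators of mitochondrial gene expression, 2 were called lower and none higher, or 15.4% of a short list against 9.16% of all tested genes (3.97% lower), with a median of -0.10. The coactivator Ppargc1a ran from 9.17 to 10.54 with a median of 9.72 in STD_Cont, from 8.79 to 9.51 with a median of 9.18 in HFD_Cont, and from 8.85 to 9.46 with a median of 9.03 in HFD_O3. Its difference was -0.54 (SE 0.15, limma adjusted p = 0.0296) in HFD_Cont and -0.62 (SE 0.16, limma adjusted p = 0.07) in HFD_O3, and the first call was lost without STD_Cont replicates 3, 4 and 5 (difference -0.48, adjusted p = 0.0515). It was also lost in 6 of the 24 fits that left out 1 array (STD_Cont replicates 1 and 7 and HFD_Cont replicates 2, 3, 4 and 8), with differences between -0.61 and -0.44 over the 24. Its partner Esrra, the estrogen-related receptor alpha, ran from 12.40 to 12.97 with a median of 12.51 in STD_Cont and from 12.10 to 12.37 with a median of 12.23 in HFD_Cont, with no overlap. The Esrra difference was -0.37 (SE 0.08, limma adjusted p = 0.00521), and it was still called without those 3 arrays (adjusted p = 0.0251). Nrf1, Gabpa and Tfam, which act on nuclear respiratory promoters or on the mitochondrial genome, were at -0.09, 0.07 and 0.01, and Ppargc1b was at -0.16, none of them called.

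Among 8 electron carriers and feeders, Sqrdl, which passes electrons from hydrogen sulfide to coenzyme Q, was called higher at 0.48 (SE 0.11, limma adjusted p = 0.00733), and cytochrome c itself, Cycs, was at -0.12 (limma adjusted p = 0.323). That 1 call is 12.5% of a short list, against 9.16% of all tested genes. Of 21 assembly factors of complex IV, Taco1, an activator of COX1 translation, was called higher at 0.26 (limma adjusted p = 0.0315) and Coa5 lower at -0.31 (limma adjusted p = 0.0164). Those 2 calls are 9.52% of the list, near the share of all tested genes. No gene was called among 12 of coenzyme Q synthesis, 7 further complex I assembly factors, 6 genes of complex V assembly and inhibition, or 4 of uncoupling and nucleotide exchange. At an unadjusted limma p below 0.05 there were 2 of the coenzyme Q genes, both higher, and 0 in the other 3 lists. Over all tested genes 9.16% were called and 24.5% had such an unadjusted p, so the absence of calls in short lists says little. In the comparisons of HFD_O3 with STD_Cont and with HFD_Cont, no gene of these lists was called, beside 0.43% and 0% of all tested genes.

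**Figure D5:**
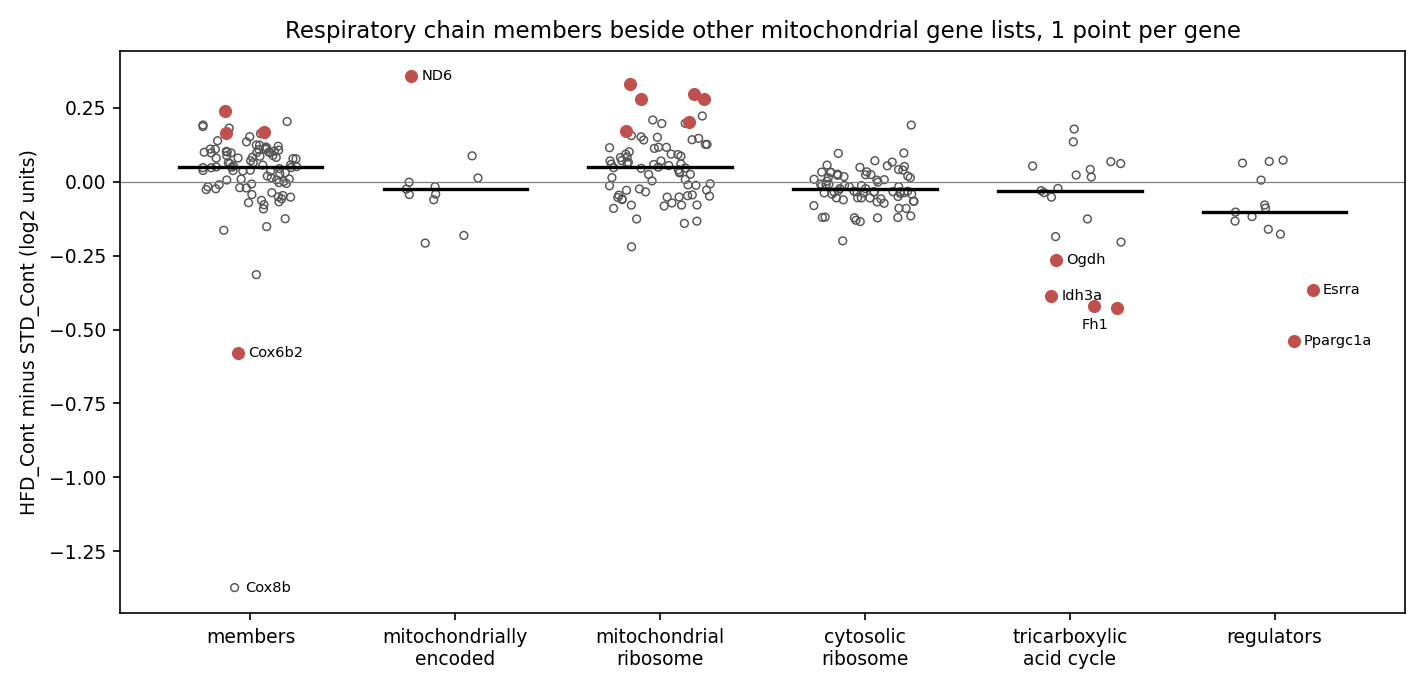
Difference of HFD_Cont minus STD_Cont (log2 units) for the 93 members and for 5 lists of related genes, 1 point per gene at its brightest probe; bars are medians and filled red points are genes called at an adjusted p below 0.05. The 4 called genes of the tricarboxylic acid cycle and the 2 called regulators lie below 0, and the 6 called genes of the mitochondrial ribosome lie above it.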

How the data were processed

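Liver total RNA was labelled with Cy3 and hybridised to 24 Agilent 1-colour arrays, 1 per mouse. The deposited scanner files hold spot intensity (median signal) from Agilent Feature Extraction 10.10.1.1, not yet normalized. The authors also deposited a value table of log2 values of 32176 probes, quantile normalized with limma by its distribution, and its filter on probes is not given in the sources used here. The sample titles gave each array its group and replicate number.

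From the median signal, outlier spots were dropped, spots of a probe were averaged, probes were kept where, in any group, at least 75% of arrays had them well above background, and log2 values were quantile normalized. A group-means model over all 24 arrays (limma 3.58.1, R 4.3.3, lmFit and eBayes, two-sided) gave 3 comparisons with Benjamini-Hochberg adjustment within each over all tested probes. The fit was tested on simulated data. Figures used Python 3.11.15 and matplotlib 3.10.9. A gene was counted at its brightest tested probe. Quantile normalization sets all arrays to 1 distribution, so a shift shared by most probes would not show.

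Members and lists were chosen with earlier results of these data known. The genes named were the called members, the highest and lowest difference of each complex, the 5 smallest p of each HFD_O3 comparison, tissue forms of complex IV, fixed regulators and carriers, up to 10 called genes of related lists, and members whose probes differed in call. Further genes are named for their role in a complex or as the called genes of a list, chosen after their values were seen. Other alternatives covered background correction, scaling, filter, the value table, blocks, 2-group fits, the methods' t-test, leaving out arrays, and, chosen after seeing the data, leaving out STD_Cont replicates 3, 4 and 5. The number of arrays limits the precision. Some genes are not reported here by name.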

Additional observations from a re-analysis of the deposited data

Results flagged for a closer look

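In 8 of 111 groups of arrays examined over the named members, the array at one end stood apart from the rest by a gap that was a large share of the range of the group (Dixon's ratio, given first below). Chance gives about 1 in 20 such groups. Ndufaf5 in STD_Cont had a ratio of 0.673, with replicate 8 at 8.62 and the others between 8.24 and 8.36. Ndufv3 in STD_Cont had 0.522, with the same replicate 8 at 15.27 and the others between 14.96 and 15.11. These 2 genes are among those called higher in HFD_Cont, and the array that stood apart lay on the HFD_Cont side.

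Sdhd in STD_Cont had a ratio of 0.566 (replicate 2 at 14.64, others 14.79 to 14.90). Uqcrc2 in STD_Cont had 0.606 (replicate 6 at 14.28, others 14.47 to 14.59). Cox7a2 in STD_Cont had 0.552 (replicate 5 at 15.63, others 15.21 to 15.39), and that replicate is one of the 2 arrays with Ucp1 well above background. HFD_Cont replicate 2 was the low array in 3 genes. Uqcrc2 had a ratio of 0.538 (14.38, others 14.55 to 14.71), Ndufs7 had 0.695 (14.30, others 14.51 to 14.61) and Atp5j2 had 0.557 (14.67, others 14.82 to 14.94).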

How the results depend on the processing

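The 4 members called in HFD_Cont compared to STD_Cont were also 4 with normexp background correction, with the deposited value table and with blocks for the row on the slide, 3 with the processed signal scaled to its 75th percentile, and 5 with the slide as a block. They were 2 when arrays were centred on the median, 1 with no filter on dim probes, 2 when only the 2 groups were fitted, 7 by the methods' t-test (1746 of all tested probes) and 0 without STD_Cont replicates 3, 4 and 5. With the replicate number as a block the count was 1. The numbers do not pair the mice, since same-numbered arrays of these groups correlated between -0.18 and 0.10 and 1 of 8 correlated best with its own number. Leaving out each array in turn gave 1 to 10 calls, with 10 without STD_Cont replicate 8, 2 without STD_Cont replicate 3, 4, 6 or 7 or HFD_Cont replicate 3, 4, 6 or 8, and 1 without replicate 1 of either group.

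In HFD_O3 compared to STD_Cont the count stayed 0 except over every tested probe, where it was 1 (the dimmer Atp5g3 probe). In HFD_O3 compared to HFD_Cont it was 0 under each alternative run. No called difference turned its sign. Without STD_Cont replicates 3, 4 and 5, all tested probes called in HFD_O3 compared to STD_Cont went from 118 to 0. Those called in HFD_O3 compared to HFD_Cont went from 0 to 7.

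Medians near 0 changed sign with the scaling or with the array left out. With the 75th percentile, the complex V median of HFD_O3 minus STD_Cont went from 0.03 to -0.01. That of complex II went from 0.01 to -0.03 with the same scaling. When each array was left out in turn, the complex II median ranged from -0.01 to 0.03 and that of complex V from 0.02 to 0.05. The complex IV median of HFD_Cont minus STD_Cont ranged from -0.03 to 0.01 over the alternatives. Leaving out each array in turn gave that whole range. The member median of HFD_Cont minus STD_Cont stayed between 0.03 and 0.07 over the alternatives.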
